A study of Caenorhabditis elegans with 2 samples.

Results

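The translocon, translocon-associated and signal peptidase genes of Caenorhabditis elegans are 10 of the 19973 protein-coding genes on its nuclear chromosomes, and GMEB-1 binding near them was read from region lists. Of these genes, 8 were listed by name (sec-61.G, trap-1 to trap-4 and spcs-1 to spcs-3), and sec-61.A and sec-61.B were added because their symbols start with sec-61. The set was chosen by measured values of the same experiment, since summits near several of these genes were known when it was drawn up. The counts and ranks that follow are therefore descriptions, and no test was made of them. Binding was measured by chromatin immunoprecipitation and sequencing (ChIP-seq), which recovers and sequences the DNA fragments bound to a protein. Whole L2 larvae of both sexes came from strain OP343, which carries the unc-119(ed3) allele on chromosome III and the integrated transgene wgIs343, labelled as expressing GMEB-1 tagged with eGFP. Both biological replicates, the only 2 samples, were of this one genotype and stage, so there is no other group to compare with, and the bound cell types in a whole larva cannot be told apart. Any binding by an untagged GMEB-1 was not measured separately.

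The Sec61 complex is the channel in the membrane of the endoplasmic reticulum (ER) through which nascent secreted proteins enter the lumen and membrane proteins enter the bilayer. Its alpha subunit forms the pore, and the small beta and gamma subunits lie at the side of it. The translocon-associated protein (TRAP) complex sits next to the channel and aids the insertion of some substrates, and the signal peptidase complex cuts the signal peptide from the entering chain. GMEB-1 is a SAND-domain protein related to the mammalian glucocorticoid modulatory element binding proteins, whose DNA sites hold an ACGT core.

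Summits of GMEB-1 lay in the promoters of 8 of the 10 genes: all 3 Sec61 subunit genes, all 4 TRAP subunit genes and the signal peptidase gene spcs-2. A promoter here is the stretch that begins 1000 bp before the start of a protein-coding transcript and ends 200 bp past it. Over all protein-coding genes, 16.3% had a summit in the promoter. The summits are those of the authors' list of regions that passed the irreproducible discovery rate (IDR) procedure, which compares the ranks of regions between lists, and it held 3909 regions. A place in it does not mean a similar rank in both replicates: of the 13 summits near these genes, those at 11920456 and 10896464 lay in no region of replicate 1. Because binding near these genes led to their choice, nothing is read from the gap between that share and 8 of 10.

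Within the gene or 2 kb on either side there was a summit for 9 of the 10 genes, against 28.2% of all genes, and spcs-1 was the exception. Together these surroundings held 13 summits, of which 7 lay in a member's promoter. The 8 promoter-bound genes share these 7 summits, because trap-3 and sec-61.B start on either side of one. A member's own start was the nearest start to a promoter summit for 6 of the 10, and 12.06% of all genes met that condition. The other two with a promoter summit, sec-61.B and trap-4, each had a neighbour whose start was closer.

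**Figure D1:**
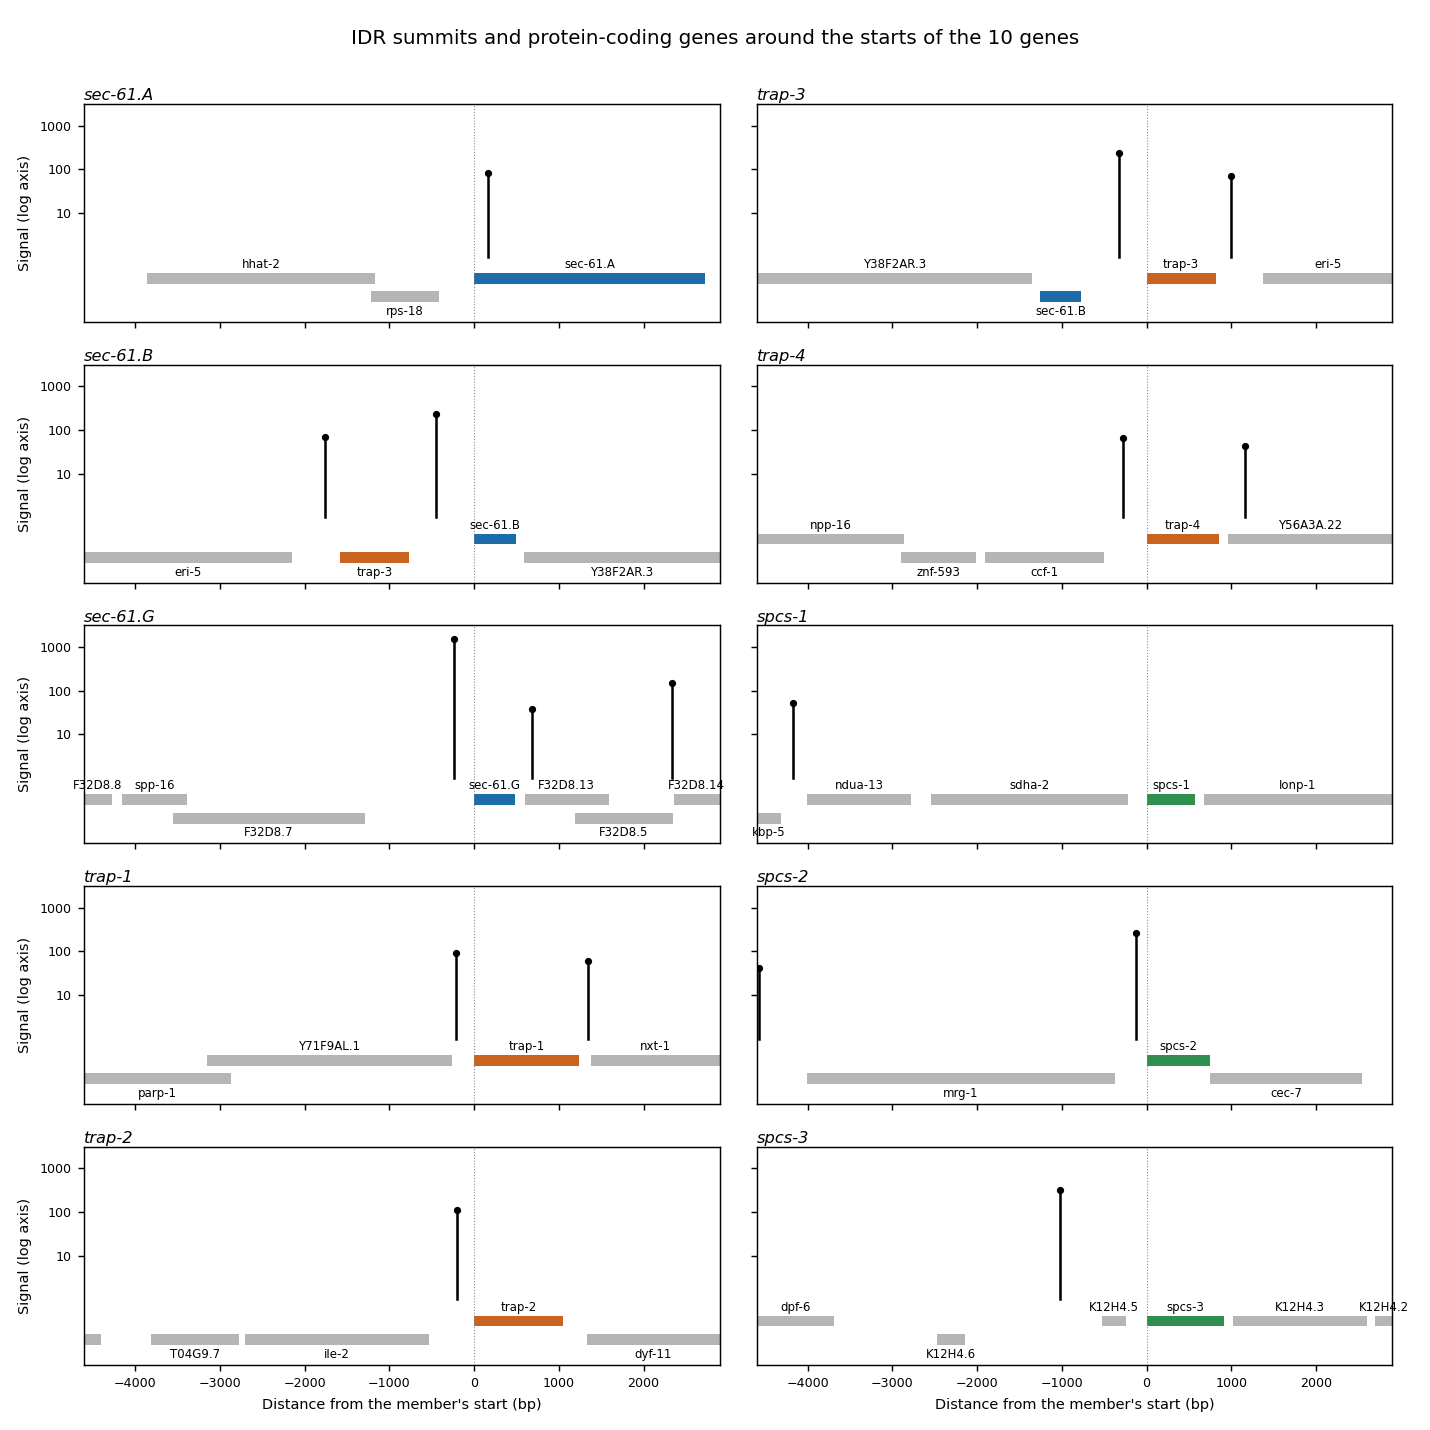
Maps of the surroundings of each of the 10 genes, with the distance from the gene's start in bp on the x axis (negative is upstream, in the direction of the gene) and the authors' signal of each IDR summit on a log y axis. Bars are protein-coding genes (members coloured by complex, other genes in grey), on the upper row if on the member's strand and on the lower row if on the other strand; sec-61.G has the tallest stem, and spcs-1 has its closest summit 4169 bp upstream.

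sec-61.G, which encodes the gamma subunit of the channel, had the strongest summit of the set by far. This summit lay at position 10897375 of chromosome V, 232 bp upstream of sec-61.G (V 10896658 to 10897143, minus strand) and in no annotated gene. Its signal, the value that the authors' caller gave the region, was 1568, and it ranked 3 of 3909. The median signal of the list was 68.4, so the summit of sec-61.G stood at the very top of the range. Ranked by signal in each replicate's own list, the region was number 71 of 28693 in replicate 1 with a signal of 41.7, and number 3 of 30000 in replicate 2 with a signal of 1523. The replicates' signals are on different scales, with maxima of 191.1 and 1996, so only the ranks can be set side by side, and both placed the region close to the top.

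The 300 bases upstream of sec-61.G are shown because they hold this summit. They were read from WBcel235 (ce11), chrV:10897144-10897443, minus strand, and end at the base before the annotated start. Capitals mark a 7-base word shared by several members, described with the other promoters, and matches to the further words described after it.
sec-61.G upstream: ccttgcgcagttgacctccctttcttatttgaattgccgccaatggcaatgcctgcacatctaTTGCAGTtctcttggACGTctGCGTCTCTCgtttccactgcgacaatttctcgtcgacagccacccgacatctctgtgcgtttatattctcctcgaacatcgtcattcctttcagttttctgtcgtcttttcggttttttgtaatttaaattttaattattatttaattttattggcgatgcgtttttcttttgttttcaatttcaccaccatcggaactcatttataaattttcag
The summit is base 232 counted back from the end of this run. The shared word is centred 234 bp upstream of the start, 2 bp from the summit, and the other capitals lie between 222 and 208 bp upstream. Many worm messages receive a spliced leader at their 5′ end, so an annotated start need not be where transcription begins.

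The other regions with a signal close to that of sec-61.G lay in the promoters of unlike genes. Next above in rank were the summits of rpl-3, with a signal of 2077, and of cdc-48.1, with 1845. rpl-3 encodes a protein of the large ribosomal subunit, and cdc-48.1 is a gene of the p97 segregase. Next below were the summits of rpl-35, another large-subunit gene, with 1539, and of citk-2 with 1442. In replicate 1 these neighbours ranked 7, 14, 41 and 126, and in replicate 2 they ranked 1, 2, 4 and 5. sec-61.G, at 71, thus fell between rpl-35 and citk-2 in replicate 1 and held its place after cdc-48.1 in replicate 2.

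Around sec-61.G there were 2 more IDR summits within 2 kb, both beyond its 3′ end. One, at 10894807 with a signal of 152.4 and rank 777, lay in the 5′ UTR of F32D8.5. It was 7 bp downstream of that gene's start and 19 bp upstream of the start of F32D8.14. Its region ranked 8049 in replicate 1 and 729 in replicate 2. The other, at 10896464, had a signal of 38.7 and rank 3904, almost the end of the list, and lay in a coding exon of F32D8.13. These belong by position to other starts. The strong summit also fell in the promoter of F32D8.13, 832 bp upstream of its start, because that gene follows sec-61.G on the same strand.

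sec-61.B encodes the beta subunit of the channel, and trap-3 encodes the gamma subunit of the TRAP complex. These genes lie back to back on chromosome IV, sec-61.B at 2388185 to 2388675 on the minus strand and trap-3 at 2389445 to 2390259 on the plus strand, with 769 bp between them. A single summit at 2389119 lay between them, 444 bp upstream of sec-61.B and 326 bp upstream of trap-3, inside the annotated non-coding gene Y38F2AR.17. Its signal was 239.7 and its rank 454. It ranked 105 in replicate 1, with a signal of 35.7, and 500 in replicate 2, with a signal of 206.2. The one region counts for both genes, so they are not independent examples, and the data do not assign it to either. A second summit, at 2390439 with a signal of 69.5 and rank 1930, lay beyond the 3′ end of trap-3 and 382 bp upstream of eri-5, an RNA interference gene.

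sec-61.A encodes the alpha subunit, the pore of the channel. Its summit lay at 14825102 of chromosome IV, 162 bp into the gene (14822540 to 14825264, minus strand) and in its 5′ UTR. The gene has 2 annotated starts, and this distance is from the outer one, which is nearer to the summit. The summit lies upstream of the other start, which is further inside the gene. No other promoter summit of the members lay downstream of the start from which its distance was taken. The signal was 82.4 and the rank 1593. In replicate 1 the region ranked 924, with a signal of 14.1, and in replicate 2 it ranked 1705, with a signal of 69.2. The same summit lay 577 bp upstream of rps-18, a small ribosomal subunit gene that is transcribed away from sec-61.A across a gap of 414 bp. The 3 channel subunits, which act together in one complex, thus had summits at ranks 3, 454 and 1593.

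The TRAP subunit genes other than trap-3 had weaker summits, all close upstream of their starts. trap-2, for the beta subunit, had a summit at 768269 of the X chromosome, 200 bp upstream of its start (767023 to 768069, minus strand), with a signal of 110.8 and rank 1130. The summit also lay 327 bp upstream of the divergent gene ile-2, a predicted lectin of the early secretory pathway, across a gap of 526 bp. The replicates differed here: the region ranked 1059 in replicate 2, with a signal of 105.9, but 6415 in replicate 1, with a signal of 5.30 and a −log10 q value of 2.88, below the ceiling of 3.53 in that list.

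trap-1, for the alpha subunit, had a summit at 2928184 of chromosome I, 211 bp upstream of its start (2928395 to 2929628, plus strand), with a signal of 94.3 and rank 1360. It ranked 2242 in replicate 1, with a signal of 8.79, and 1298 in replicate 2, with a signal of 87.6. This was the only member promoter summit in no other gene's promoter. The gene Y71F9AL.1 ends 260 bp upstream of trap-1 on the same strand, an arrangement that in worms can mark an operon, but it had no promoter summit of its own. A further summit, at 2929737 with rank 2269, lay past the end of trap-1 and 40 bp upstream of nxt-1, an RNA export gene.

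trap-4, for the delta subunit, had the weakest promoter summit of the 8 genes. It lay at 11920456 of chromosome III, 279 bp upstream of the start (11920735 to 11921586, plus strand), with a signal of 65.1 and rank 2095. The start of ccf-1, a deadenylase subunit gene on the other strand, was closer to it, at 219 bp, and 497 bp separate the genes. In replicate 2 the region ranked 1753, with a signal of 67.2. In replicate 1 no region covered this position, and the only summit in the trap-4 promoter there ranked 16516, with a signal of 3.17, and lay 125 bp downstream of the start. The other nearby IDR summit, at 11921902 with a signal of 42.9 and rank 3494, was in a coding exon of Y56A3A.22 and ranked 1171 and 3921 in the replicates' lists.

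The 3 accessory subunits of signal peptidase differed from one another. spcs-2 had a summit at 12874904 of chromosome III, 127 bp upstream of its start (12875031 to 12875783, plus strand), with a signal of 270.04 and rank 393, and in the replicates it ranked 208 and 430, with signals of 28.4 and 237.9. This was the closest of the upstream summits to a member's start. It also lay 248 bp upstream of mrg-1, a divergent gene for a chromodomain protein.

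spcs-3 had the second-strongest summit within 2 kb of any of the 10 genes but none in its promoter. The summit, at 8043996 of chromosome III with a signal of 326.96 and rank 305, lay 1021 bp upstream of spcs-3 (8045017 to 8045931, plus strand), just past the limit of 1000 bp. It was 491 bp upstream of K12H4.5, which lies on the same strand and ends 236 bp before spcs-3 begins. The replicates ranked it 586 and 302. In replicate 1 the region's summit was 978 bp upstream of spcs-3 and so inside the promoter, which shows how narrowly the limit decided this call.

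spcs-1, on chromosome I at 10682472 to 10683048 on the minus strand, had no IDR summit within 2 kb. The closest, at 10687217 with a signal of 51.5 and rank 2796, was 4169 bp upstream. On the way lie sdha-2, a succinate dehydrogenase gene 221 bp upstream of spcs-1, and ndua-13, a respiratory complex I gene 237 bp further, both on the strand of spcs-1. The summit was 159 bp upstream of ndua-13 and 146 bp upstream of kbp-5, a kinetochore gene on the other strand. The lists without the IDR filter put a summit 132 bp upstream of spcs-1 in replicate 2, at rank 16464 with a signal of 9.22, and at rank 27193 of the pooled list. Replicate 1 had none, and ranks this low fall among the background regions that those lists include. Counting a same-strand neighbour within 300 bp upstream, trap-1, spcs-1 and spcs-3 have such a neighbour, as do 12.4% of all genes.

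**Figure D2:**
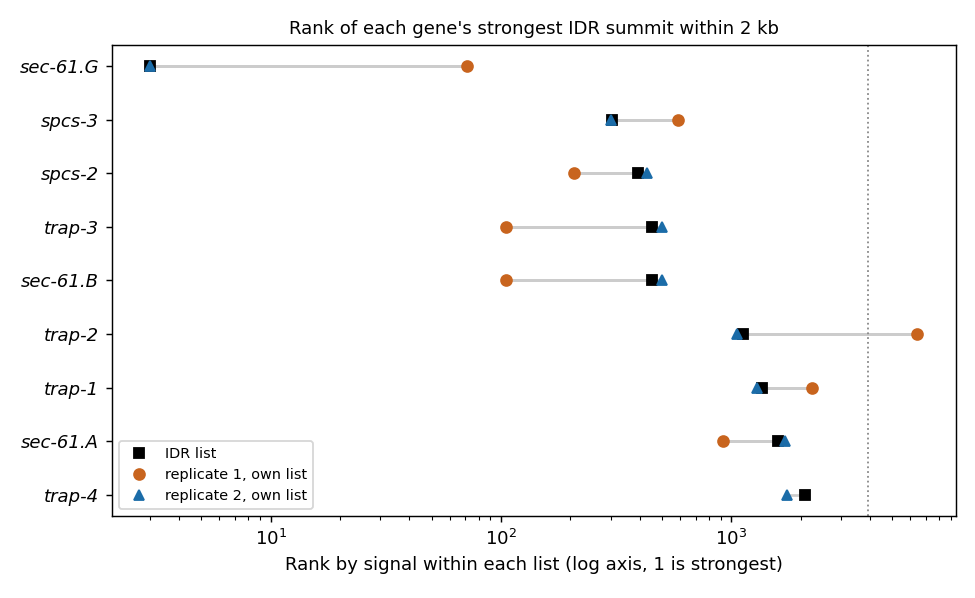
Rank by signal, on a log x axis where 1 is strongest, of the strongest IDR summit within 2 kb of each gene (rows) in the IDR list (squares) and of the region that covers it in the list of replicate 1 (circles) and replicate 2 (triangles). The dotted line marks rank 3909, the length of the IDR list; replicate 2 stays beside the IDR rank, while replicate 1 put trap-2 at 6415 and has no point for trap-4.

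The replicates' own lists gave a similar number of genes but not the same ones. Among the 3909 highest-ranked regions of replicate 1, a summit lay in the promoters of 7 of the 10 genes, against 11.8% of all genes. Among those of replicate 2 it was 8 of the 10, against 16.5%. The genes found in both were 6, the Sec61 genes, trap-1, trap-3 and spcs-2, against 8.76% of all genes. trap-2 and trap-4 were found in replicate 2 alone, as were 7.71% of all genes, and spcs-3 in replicate 1 alone, as were 3.06%. The region upstream of spcs-3 ranked 586 in replicate 1 and 302 in replicate 2. Its summit was 978 bp upstream in replicate 1 and 1021 bp upstream in replicate 2, on either side of the promoter limit. The order of the members also differed: replicate 1 placed the summit between sec-61.B and trap-3 at 105 and that of spcs-2 at 208, and replicate 2 placed both lower, at 500 and 430. The rank in the IDR list lay nearer to that in replicate 2 than to that in replicate 1 for every gene whose strongest summit was found in both.

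**Figure D3:**
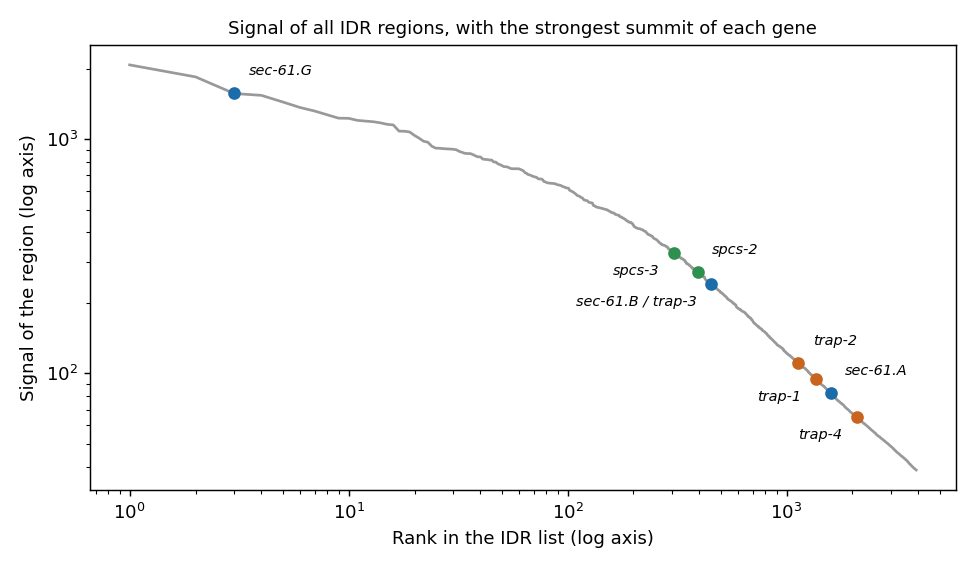
The authors' signal (log y axis) of all IDR regions against their rank (log x axis), with the strongest summit within 2 kb of each gene marked (Sec61 blue, TRAP orange, signal peptidase green, and sec-61.B with trap-3 as 1 blue point). sec-61.G, with a signal of 1568, stands apart near the top, and the other genes lie between 326.96 for spcs-3 and 65.1 for trap-4.

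Among the 3265 genes with a promoter summit, sec-61.G was number 3, spcs-2 number 516, and sec-61.B and trap-3 shared number 603. The remaining genes lay further down, with trap-2 at 1378, trap-1 at 1591, sec-61.A at 1760 and trap-4 at 2143. The median rank of the members' strongest promoter summits was 792 in the IDR list, and the median of all genes with one was 1415. The members' median is over 8 genes, so the summit shared by sec-61.B and trap-3, at rank 454, enters it for each of them. As the genes were chosen with binding known, nothing is read from the difference. The distance to the start was alike, with a median of 221.5 bp and a range of 127 to 444 bp for the members and a median of 221 bp over all genes with a promoter summit. Of the 7 member promoter summits, 6 also lay in another gene's promoter. Over all IDR summits in promoters, 32.3% lay in the promoters of 2 or more genes.

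One short word recurred at the members' promoter summits. In windows of 101 bases centred on the summits, ACTGCAA or its reverse complement TTGCAGT was present in 6 of the 7 windows, those of sec-61.G, sec-61.B with trap-3, trap-2, trap-1, sec-61.A and trap-4. Only the window of spcs-2 lacked it. The word was picked after these windows were seen, as the 7-base word shared by most of them, so it has no test and its count is a description. In all 3909 IDR windows, those of the members included, it was present in 79, or 2.02%. In the windows of the 10000 lowest-ranked pooled regions it was present in 1.51%. The windows below, from WBcel235 (ce11), show where it lies and are written 5′ to 3′ along the member's strand, with the word in capitals. They are chrV:10897325-10897425 (minus strand, sec-61.G), chrIV:2389069-2389169 (minus strand, along sec-61.B), chrX:768219-768319 (minus strand, trap-2), chrIII:11920406-11920506 (plus strand, trap-4) and chrIII:12874854-12874954 (plus strand, spcs-2, without the word).
sec-61.G: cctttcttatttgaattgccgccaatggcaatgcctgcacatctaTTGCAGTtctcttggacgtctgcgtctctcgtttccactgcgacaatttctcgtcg
sec-61.B/trap-3: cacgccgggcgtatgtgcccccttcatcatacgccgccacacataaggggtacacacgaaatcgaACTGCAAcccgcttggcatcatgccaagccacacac
trap-2: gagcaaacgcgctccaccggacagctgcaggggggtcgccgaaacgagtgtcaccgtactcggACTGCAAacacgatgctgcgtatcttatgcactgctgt
trap-4: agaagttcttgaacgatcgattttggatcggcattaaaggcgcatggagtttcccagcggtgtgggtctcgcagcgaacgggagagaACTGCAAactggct
spcs-2: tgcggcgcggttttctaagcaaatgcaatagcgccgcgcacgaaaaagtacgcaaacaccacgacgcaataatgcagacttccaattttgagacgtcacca
The remaining member windows were searched in the same way and are not printed. The centre of the word was 2 to 40 bp from the summit, at 2 bp in sec-61.G, 16 bp in trap-2, 18 bp between sec-61.B and trap-3, 19 bp in trap-1, 35 bp in sec-61.A and 40 bp in trap-4. Read along each gene, it was ACTGCAA for 4 genes and TTGCAGT for 3, so it had no fixed direction. The copy between sec-61.B and trap-3 counts in both directions, because these genes are divergent. Of the others, sec-61.A, trap-2 and trap-4 had ACTGCAA, and sec-61.G and trap-1 had TTGCAGT. Around the word, sec-61.A, sec-61.B with trap-3, sec-61.G, trap-1 and trap-4 also shared AACTGCA, which overlaps it and is in 1.97% of IDR windows.

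Over the whole list the word was rare among strong and weak regions alike. It was present in 2.40% of the 500 strongest IDR windows and in 1.32% of the 909 weakest. The strongest include the windows of sec-61.G and of sec-61.B with trap-3, from which the word was picked. In the 500 bases upstream of the start it was present for 7.28% of all protein-coding genes and for 6 of the 10 members, sec-61.B, sec-61.G, trap-1, trap-2, trap-3 and trap-4. The copies in these members' summit windows, centred 184 to 426 bp upstream, lie in this stretch. The count of members thus repeats the copies from which the word was picked and is not a second observation. The copy between sec-61.B and trap-3 counts for both. In sec-61.A the word lies 197 bp downstream of the start, beyond that stretch. Of 56 other ER genes, described with their lists at the end, 11 had it in the same stretch, or 19.6%. Among these, dad-1, dnj-29, imp-2, enpl-1, cup-2 and sec-12 had an IDR promoter summit, as did a further gene not reported here. The others, srpa-72, asna-1, pdi-1 and dnj-7, had none. Over all 56 genes, 28 had an IDR promoter summit. imp-2 and enpl-1 share one upstream region, as sec-61.B and trap-3 do.

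A further 5 words, ACGT and 4 found in earlier work on these data, were searched in the same windows on both strands. The ACGT core was present in the windows of sec-61.G and spcs-2 among the 7 promoter summits and in 26.1% of all IDR windows. GAGAGA was present at sec-61.G and trap-4 and in 22.3% of all IDR windows. AGACGC, in 12.6% of them, was present at sec-61.G alone, while ACGCGC, in 12.3%, and GAGCGC, in 12.4%, were present at trap-2 alone. In sec-61.G the AGACGC word, read there as GCGTCT, overlaps the GAGAGA word, read as TCTCTC, by 3 bases. The windows of sec-61.B with trap-3, trap-1 and sec-61.A held none of the 5, as was the case for 39.7% of IDR windows. Base composition varied among the member windows, from 32.7% G and C at sec-61.A to 59.4% at trap-2, with a median of 43.6% over all IDR windows. In the 300 bases upstream of all genes, ACGT was present for 50.02%, GAGAGA for 21.6% and AGACGC for 7.82%, so the first of these is common in any such stretch.

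Genes that act before, beside and after the translocon were bound in varying shares, and 28 of the 56 in 6 lists had an IDR summit in the promoter. Among each replicate's own first 3909 regions it was 25 in replicate 1 and 27 in replicate 2. Over all protein-coding genes the shares were 16.3% in the IDR list, 11.8% in replicate 1 and 16.5% in replicate 2. The same shares apply beside each list that follows. The lists were chosen with earlier results of these data known, so nothing is read from the gaps. The summit of rank 616 counts for both imp-2 and enpl-1. The signal recognition particle (SRP) and its receptor, which bring ribosomes to the channel, had 6 of 8, with 4 in replicate 1 and 5 in replicate 2. Among them were F38A1.8 at rank 290 and F21D5.7, for the 54 kDa subunit, at 448, which ranked 695 and 846 in replicate 1 and 286 and 449 in replicate 2. R186.3, listed as a receptor subunit, is named an ADP-ribosylation factor-related protein in RefSeq, so its place in this list is uncertain. Among other factors of ER entry, 3 of 11 had an IDR summit, and each replicate's own first 3909 regions also gave 3. The genes behind these counts need not be the same. Those in the IDR list were imp-2 at rank 616, dnj-29 at 1121 and emc-6 at 1494. These regions ranked 559, 2443 and 11273 in replicate 1 and 638, 1140 and 1341 in replicate 2, so that of emc-6 stood high in replicate 2 alone. imp-2 encodes a signal peptide peptidase relative, and its summit was 352 bp upstream of it but 59 bp upstream of enpl-1. That of emc-6 was 167 bp upstream of it and 142 bp upstream of mrps-24. sec-11, which encodes the catalytic subunit of signal peptidase, had no promoter summit, and neither did the genes for the channel's partners SEC62 and TRAM.

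The oligosaccharyltransferase, which glycosylates chains as they emerge from the channel, had 2 of 6 genes with a summit, dad-1 at rank 317 and ostb-1 at 2000, with 1 gene in replicate 1 and 3 in replicate 2. dad-1 ranked 157 and 336 in the replicates, and ostb-1 ranked 6032 and 2196. The dad-1 summit was 403 bp upstream of it and 36 bp upstream of tre-1, a trehalase gene. ER chaperones and oxidoreductases, which fold the entered chains, had 7 of 14, led by pdi-3 at rank 407, crt-1 (calreticulin) at 543 and hsp-3 (an ER HSP70) at 581, with 8 genes in replicate 1 and 7 in replicate 2. These regions ranked 100, 198 and 83 in replicate 1, above their places in replicate 2, at 445, 581 and 656. The pdi-3 summit was 657 bp upstream of it, and ubql-1 was nearer, at 518 bp. Genes of the unfolded protein response and of ER-associated degradation had 5 of 9, led by the stress-response transcription factors atf-6 at rank 1203 and xbp-1 at 1329 and by cup-2 (derlin) at 1916, whose summit was nearer to tag-353, with 5 genes in replicate 1 and 4 in replicate 2. xbp-1 and cup-2 ranked 759 and 2976 in replicate 1 and 1387 and 1946 in replicate 2, and atf-6 ranked above both in replicate 1 but at 1457, between them, in replicate 2. The COPII coat, which buds vesicles from the ER, had 5 of 8, led by sec-24.1 at rank 175, sec-12 at 323 and sar-1 at 712, with 4 genes in replicate 1 and 5 in replicate 2. sec-24.1 and sar-1 ranked 282 and 285 in replicate 1 and 178 and 772 in replicate 2. sec-12 stood at rank 300 in replicate 2 and 19317 in replicate 1.

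**Figure D4:**
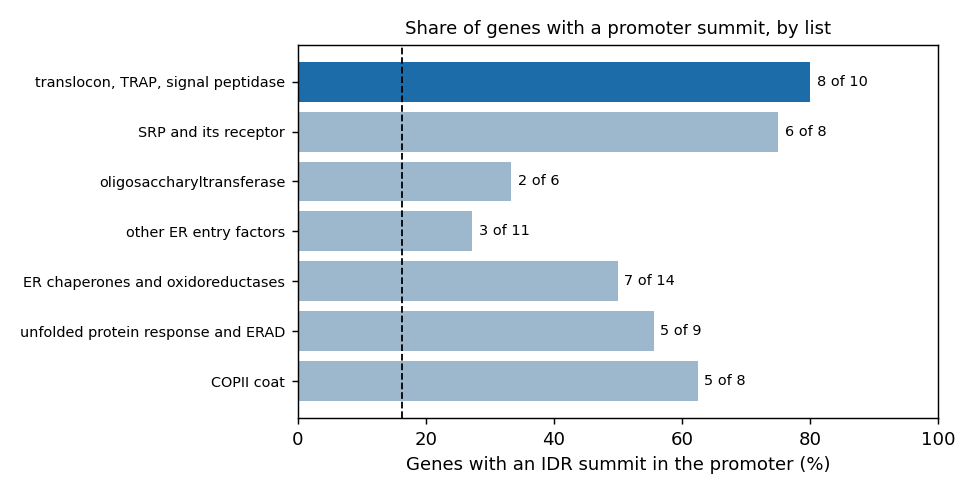
Share of genes (x axis, in %) with an IDR summit in the promoter, for the translocon, TRAP and signal peptidase genes (dark bar) and 6 lists of other ER genes (light bars), with the counts beside the bars. The dashed line is the share of all protein-coding genes, 16.3%. The shares run from 27.3% for other ER entry factors to 80% for the translocon set. The translocon set and the 6 lists were all chosen with earlier results of these data known.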

How the data were processed

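ChIP-seq region lists in build ce11 were used. The authors, per their deposited readme, called a relaxed list for each replicate and for the pooled replicates against a control, and made the IDR list from these. Both replicates name 1 control. Signal, as deposited, is the value from the authors' caller and was used only to rank within a list. The deposited −log10 q values reach a ceiling in every IDR region and ranked nothing. Not given in the sources used here: caller, aligner, IDR threshold and depth, hence no intervals.

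Coordinates are 1-based. Genes came from Ensembl release 115 (WBcel235, the same assembly as ce11), sequences from the RefSeq genome of that build, and product names from RefSeq. Regions were ranked by signal. A replicate's rank is that of its region that covers the IDR summit, with the nearest summit where several do. A promoter summit is counted for every gene whose promoter holds it. The members and lists were chosen with earlier results of these data known. Named genes were all members, genes sharing or nearer to a member's summit, the 3 highest-ranked of each list, and the 2 neighbours in rank on either side of sec-61.G; 1 gene that this rule names is not reported here. Other genes named for the 7-base word, or for having no summit, were chosen after their values were seen. Of 12 entry factors 11 matched a symbol, emc-4 being the exception. Scripts were tested on simulated data. Python 3.11.15, numpy 2.4.6, pandas 2.3.3 and matplotlib 3.10.9 were used.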

Additional observations from a re-analysis of the deposited data

How the results depend on the processing

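All 14 recounts under other settings stayed within 1.5 times the reported counts. Counts of 8 and 9 out of 10 could not have risen beyond that, so for these only a fall could have been seen. The ranks of single genes, which differed between the replicates, are not among the recounts. Each recount is given with the share of all protein-coding genes under the same setting. With a promoter of 500 bp upstream and 100 bp downstream, 7 of the 10 genes had a summit in it (13.3% of all genes), and with 2000 and 500 bp, 9 had (20.8%). Taking 1 start per gene left 8 (15.3%), the 1954 strongest IDR regions left 7 (10.2%), and counting a summit for the nearest start alone left 6 (12.06%). Each replicate's own first 3909 regions gave 7 to 8 (11.8% and 16.5%). Summits within 1 kb of the gene were found for 8 of the 10 (22.1%), within 5 kb for 10 (41.8%), and within 2 kb among the stronger IDR regions for 8 (17.3%). The replicates' own lists gave 8 to 9 within 2 kb (23.7% and 28.3%). A member's start was the nearest to a summit within 2 kb for 6 of the 10 in the main setting (15.4% of all genes). It was the nearest for 5 when starts of every biotype were used (12.6%) and for 6 with 1 start per gene (15.3%). Counts of the short words depended on the window, as did their shares: ACGT was at 1, 3 and 7 of the 13 summits with 25, 50 and 100 bp to either side, and in 14.6%, 26.1% and 43.4% of all IDR windows. No paired analysis was possible because there is 1 group and no test. The number of reads is unknown, so a missing summit, as at spcs-1, says only that none passed in these lists.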
